A study of Homo sapiens with 8 samples.

Results

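Human embryonic stem cells of the established line H9 were compared in 2 states: cells sorted for surface KDR and CD31 after 8 days of differentiation toward blood, and the undifferentiated culture at day 0. Each state was measured on 2 expression arrays, so that 4 of the 8 arrays of the study enter the comparison, chosen by their titles, while the other 4 hold cells of the same sort at day 4 and day 6. KDR is the principal signalling receptor for vascular endothelial growth factor, and CD31, encoded by PECAM1, is an adhesion molecule of endothelial and blood cells. The labels describe the stem cells as kept on inactivated mouse embryonic fibroblasts and the differentiation as run in a serum-free haematopoietic medium containing BMP-4. The day 0 cells were not sorted, so that sorting and 8 days of differentiation cannot be told apart. The source name of both day 8 arrays gives day 4, while their titles, descriptions and stages give day 8, and the latter was used. Replicate 2 of day 6 has the same mismatch, with day 4 in its source name, so that the day of these 3 arrays rests on their titles. The arrays are called biological replicates with no statement of separate cultures, so the p-values measure only the spread between these arrays.

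In the embryo, the first vessels and the first blood cells arise side by side from mesoderm, and blood cells with lasting potential bud from a specialised, haemogenic endothelium. Endothelial identity is held by transcription factors of the ETS, SOX and GATA families together with TAL1 and LMO2, several of which also build the blood programme. The first red cells of the yolk sac carry embryonic globins and later waves carry fetal and adult ones. The undifferentiated state is held by a network of factors that includes NANOG, SOX2 and OTX2.

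Values are intensities of 1 probe set per gene, rounded to 4 digits and listed in replicate order, and changes are day 8 minus day 0 on the scale log2(intensity + 32) with the SE of the fit. Because 32 units are added, folds of dim genes are understated and depend on that offset. Folds refer to that 1 probe set, and the other probe sets of a gene could change less. Pearson's r over the 13647 genes tested, which are not independent of each other, was 0.997 between the day 0 arrays and 0.980 between the day 8 arrays. Between the day 0 arrays 1 gene lay over 2-fold apart, against 215 genes at day 8, and replicate 2 of day 8 was closer to replicate 2 of day 6 (r = 0.990, 70 genes over 2-fold apart) than to its own partner. The ratio of 3' to 5' signal for GAPDH, a control for RNA integrity, took values of 1.71 and 1.91 before differentiation and of 2.41 and 3.08 in the sorted day 8 cells. These groups did not overlap, and the part of RNA integrity in the results was not tested. The same ratio for ACTB overlapped, with 8.92 and 10.4 before differentiation and 9.91 and 15.1 after it. The first replicates of day 4 and day 6 separated from the remaining sorted arrays on the second principal component (16.6% of variance), and they enter the fit's estimate of spread.

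At day 8 the cells carried a broad endothelial programme, and most of the listed undifferentiated and epithelial genes were lower. Some globin and other blood genes were higher too, with globin calls that were mostly lost when an array of day 0 or day 8 was left out. Of the 13647 genes, 3345 (24.5%) changed in limma (adjusted p under 0.05). Of all genes tested, 1422 (10.4%) rose and 1923 (14.1%) fell, and the median change over all genes was -0.03. These 2 shares are the background for every list count below. At least 2-fold differences were reached by 897 of the risers and 1230 of the fallers, and at least 8-fold differences by 161 and 124. Both day 0 arrays lay below their array's median for 259 of the risers, and both day 8 arrays did for 399 of the fallers. Those 259 risers entered the test only through sorted arrays, so that the filter favours a rise for such genes. Likewise, fallers below the median on all sorted arrays, such as NANOG, entered only through the day 0 arrays. For them the filter favours a fall. Leaving out replicate 1 or replicate 2 of day 0 reduced the changed genes to 1217 and 1265, and leaving out replicate 1 or replicate 2 of day 8 reduced them to 1920 and 1545. In a bulk sample, fewer cells of a type and less RNA per cell cannot be told apart, which holds for every change below. Genes were named by a rule of size within each list, and list members named beyond that rule were chosen after their values were seen. Of the 301 list members that changed, 169 kept the call without each of the 4 arrays compared, and 132 lost it without at least 1 of them.

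**Figure D1:**
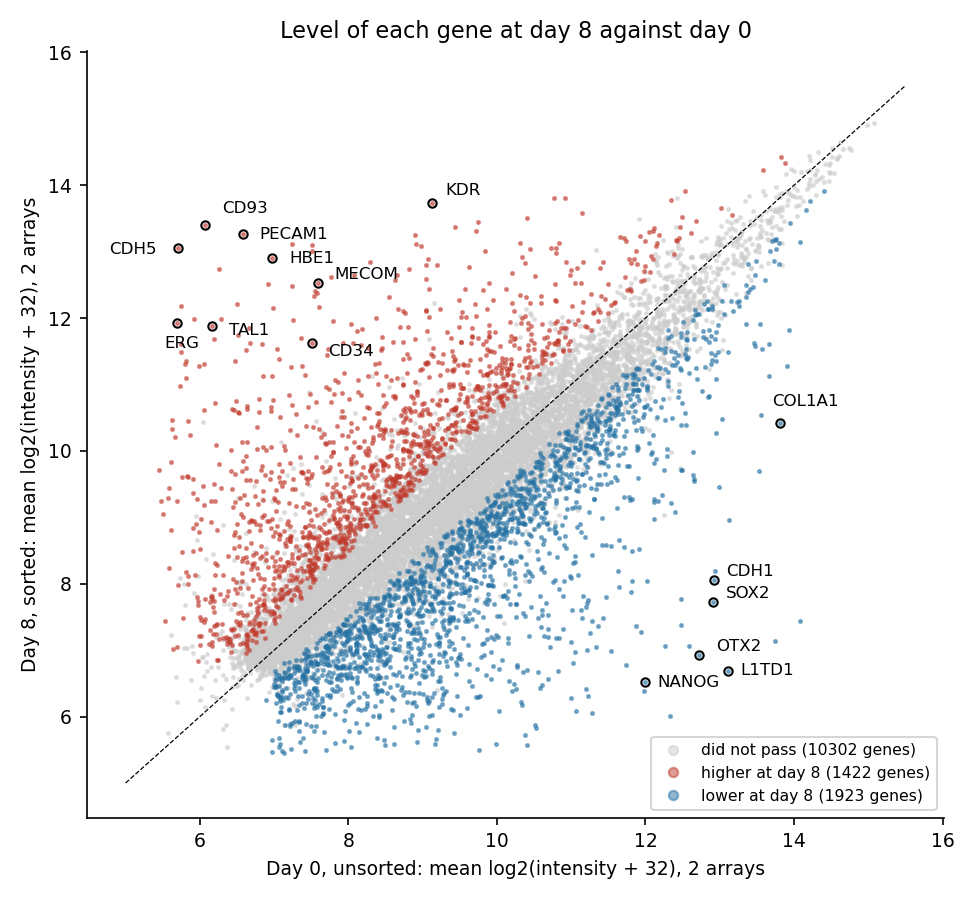
Mean level of each of the 13647 genes tested, as log2(intensity + 32), on the 2 unsorted day 0 arrays (horizontal axis) and on the 2 sorted day 8 arrays (vertical axis), with the dashed line marking equal levels. Red points are the 1422 genes that rose and blue points the 1923 that fell in limma, and CDH5, CD93, NANOG and L1TD1 lie far from the line.

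The gate genes show the sort itself. KDR read 486.4 and 574.1 at day 0 and 14930 and 12310 at day 8, and PECAM1 read 77.28 and 51.42 against 9275 and 10300. Their rises of 24.2-fold and 103-fold are what the sort selects for and are not a finding. Summed over 8 defining endothelial markers, which include both gate genes, the intensity came to 1356 and 1358 at day 0 and to 52300 and 49050 at day 8. All 8 markers lay above the array median on both day 8 arrays, against 3 on each day 0 array. The 8 blood markers summed to 1191 and 1160 at day 0 and to 2450 and 2553 at day 8. Of these, 4 lay above the array median on each day 0 array, and 6 and 4 on the day 8 arrays. The 6 measured markers of undifferentiated cells summed to 40950 and 39770 at day 0 and to 5099 and 3663 at day 8.

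Beside PECAM1, 11 genes made up the 12 largest rises, many of them known from endothelium. CDH5, the cadherin of endothelial junctions, read 21.02 and 19.48 at day 0 and 8394 and 8537 at day 8. On the log scale it had a mean of 5.71 ± 0.03 (SD, n = 2) at day 0 and of 13.05 ± 0.02 (SD, n = 2) at day 8, so that it rose by 7.35 ± 0.40 (SE) or 163-fold (limma, adjusted p = 4.83e-05). With an offset of 1 the rise was 8.64, and with an offset 4 times larger it was 5.86. CD93, a lectin-like endothelial receptor, read 25.1 and 47.05 against 9845 and 11760 and rose 161-fold. MMRN2, the matrix protein of vessels that binds CD93, read 20.69 and 22.61 against 4495 and 4742 and rose 86.7-fold. For each of these genes the day 0 and day 8 arrays were far apart and the 2 arrays of a day lay close together.

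RASGRP3, an activator of RAS proteins in endothelial and B cells, read 45.88 and 43.69 against 6839 and 6772 and rose 89.1-fold, with the smallest SE of the 12 at 0.15 on the log2 scale. ADGRF5, an adhesion receptor of endothelium and lung, rose 66.8-fold, and GIMAP8, a GTPase of lymphocytes and endothelium, rose 53.4-fold. MRC1, the mannose receptor of macrophages and sinusoidal endothelium, read 16.33 and 27.64 against 2364 and 4072, a rise of 58.4-fold. LAPTM5, a lysosomal protein of blood cells, read 62.72 and 54.2 against 3830 and 5759, a rise of 52.3-fold. The remaining 3 of the largest rises were the transcription factor genes ERG and SOX7 and the embryonic globin gene HBE1, described below. The 12 genes had an adjusted p between 2.6e-06 and 0.0136.

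The largest falls were led by APELA, the gene of a secreted peptide that signals through the apelin receptor. It read 13980 and 13400 at day 0 and 219.4 and 47.13 at day 8, a fall of 97.3-fold (limma, adjusted p = 0.000913). L1TD1, an RNA-binding protein of undifferentiated cells, read 9081 and 8484 against 97.07 and 50.57 and fell 85.3-fold. CFAP95, a gene of cilia and flagella, fell 80.5-fold, and CYP26A1, which degrades retinoic acid, fell 46.0-fold. USP44, a deubiquitinase of undifferentiated cells, read 2658 and 2279 against 33.85 and 35.26. IDO1, a tryptophan-degrading enzyme, read 5654 and 5650 against 134.6 and 134.3, the closest replicates of the 12. PTPRZ1, a receptor phosphatase, fell 36.6-fold with day 8 arrays at 8.29 and 5.84 on the log2 scale. The other 5 were OTX2, ESRP1, NANOG, SOX2 and GREM1, described below with their groups.

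**Figure D2:**
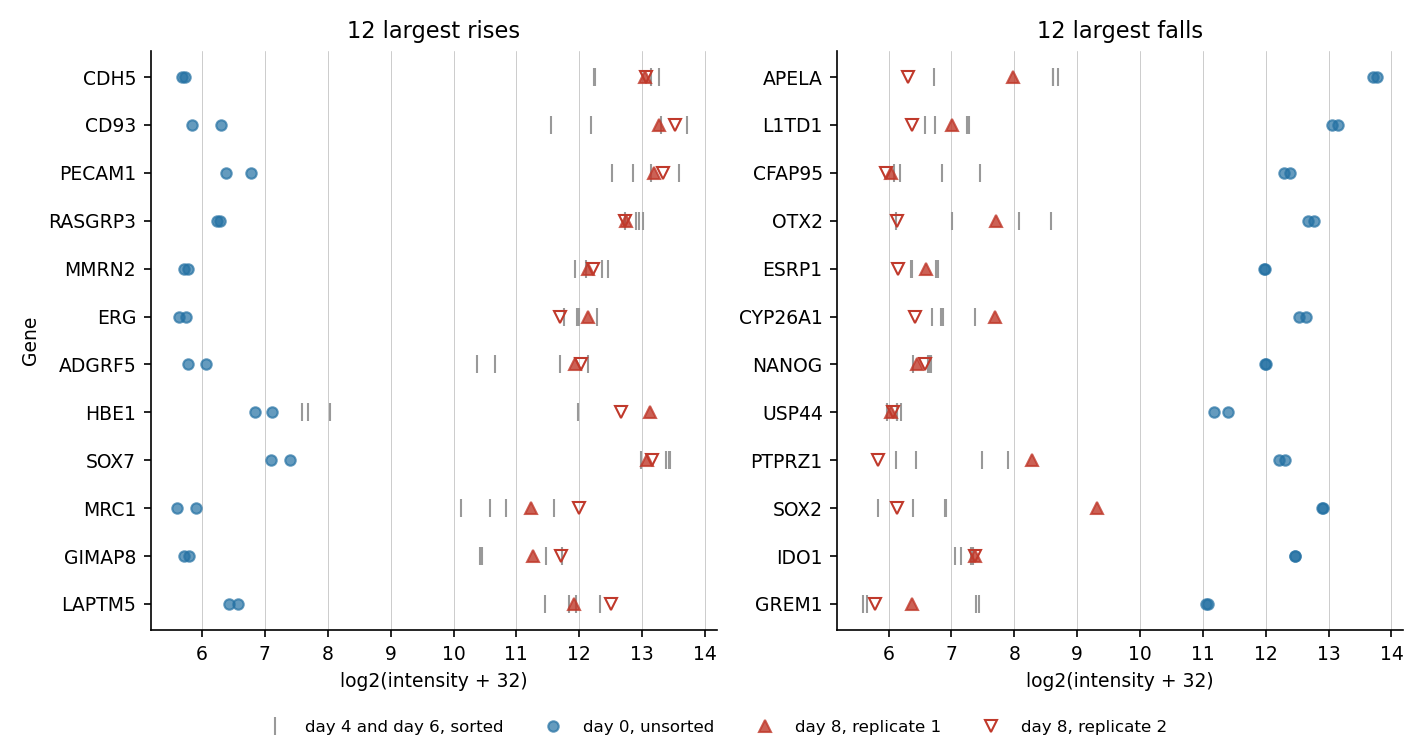
Level as log2(intensity + 32) of the 12 largest rises (left) and the 12 largest falls (right) on each array. Blue circles are the 2 day 0 arrays, filled and open red triangles are replicates 1 and 2 of day 8, and grey ticks are the 4 sorted arrays of day 4 and day 6. For HBE1, 3 of the 4 grey ticks lie well below the day 8 arrays.

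Receptors for vascular growth and guidance signals rose nearly as a whole. Of 17 tested members, 15 rose and 0 fell, against 10.4% of all genes that rose, and the median change was 3.28. These risers include the gate gene KDR, whose rise the sort selects for. APLNR, the apelin receptor, read 150.4 and 149.9 at day 0 and 7602 and 8810 at day 8, a rise of 45.1-fold (limma, adjusted p = 8.54e-06). Its ligand gene APELA fell over the same comparison, as given above. CALCRL, which forms the adrenomedullin receptor together with RAMP2, read 34.69 and 34.37 against 2730 and 2293 and rose 38.1-fold, while RAMP2 read 88.1 and 103.7 against 557.2 and 639.6.

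The angiopoietin receptor TEK read 534.5 and 483.4 at day 0 and 7499 and 7568 at day 8, and its partner TIE1 read 39.26 and 29.52 against 1627 and 1446, a rise of 23.7-fold. FLT1, the decoy-like receptor of vascular endothelial growth factor, read 1279 and 1027 at day 0 and 6908 and 6191 at day 8, a rise of 2.48 ± 0.68 (SE) on the log2 scale (limma, adjusted p = 0.0395). Both neuropilins, the co-receptors of that growth factor, rose, NRP2 by 8.37-fold and NRP1 from 538.1 and 527.2 to 3469 and 2534. FLT4, the receptor of lymphatic growth factors, rose 9.69-fold, with a call that ended without either day 0 array or replicate 2 of day 8 (adjusted p 0.0661 to 0.0742), and 1 of its 3 probe sets went the other way. S1PR1, the sphingosine phosphate receptor that steadies vessels, read 60.68 and 60.47 against 1440 and 1543. The FLT1 and RAMP2 calls were lost without any 1 array of the 2 days (limma, adjusted p 0.145 to 0.185 and 0.0604 to 0.0938). EDNRB and UNC5B did not pass, at 0.47 and 3.07 on the log2 scale. Without 1 of the day 0 arrays the count of risers was 11 either way.

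Junction and surface genes of endothelium gave 31 risers and 1 faller among 36 tested, with a median change of 3.86. CLDN5, the tight junction claudin of endothelium, read 114.7 and 126.9 at day 0 and 3520 and 4495 at day 8, and ESAM, an adhesion molecule of endothelial junctions and platelets, read 65.16 and 51.01 against 2583 and 1098. CD34, the sialomucin of endothelium and blood progenitors, read 143.1 and 157 against 3068 and 3164, a rise of 17.3-fold (limma, adjusted p = 0.00287). ICAM2, an adhesion ligand for leukocytes, read 185.8 and 119.3 against 8166 and 9432, and PLVAP, which forms the diaphragms of endothelial pores, read 74.23 and 63.82 against 3615 and 3679. In each of these genes every day 8 array lay above every day 0 array, as in 4821 of all 13647 genes. CLDN5 was not called without any 1 of these arrays.

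Surface genes that are also used outside the endothelium behaved less uniformly. JAM2, a junctional adhesion molecule, fell from 450.5 and 478.5 to 236.3 and 149.8, whereas its relative JAM3 rose from 1719 and 1778 to 8802 and 8199. PODXL, a sialomucin shared by stem cells and endothelium, did not pass, with 15670 and 13720 at day 0 and 8659 and 5758 at day 8. MCAM and CAV1 did not pass either, and CLEC14A, the partner of CD93 in binding MMRN2, read 76.82 and 72.06 against 308.7 and 343.7 without passing. The JAM2 call ended without either day 0 array or replicate 2 of day 8 (limma, adjusted p 0.118 to 0.146), while the count of risers was 27 or 28 without any 1 array of the 2 days.

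Transcription factors of endothelium rose in 16 of 21 tested cases and fell in 0, with a median change of 2.97. ERG, the ETS factor of endothelium and blood stem cells, read 17.53 and 21.82 at day 0 and 4477 and 3296 at day 8, a rise of 6.23 ± 0.22 (SE) on the log2 scale (limma, adjusted p = 8.83e-06). FLI1, its close relative, read 99.33 and 78.72 against 6357 and 5336 and rose 48.6-fold on the probe set used. All 6 FLI1 probe sets were higher, with a median log2 change of 0.85, against 5.60 on the one used. Of the other ETS factors listed, ETS1 read 1661 and 1751 against 15100 and 13440, ETS2 read 519.7 and 486.5 against 3136 and 2082, and ELK3 read 1778 and 1716 against 9085 and 7137. All 5 of these ETS genes rose.

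Among the SOX factors of the vessel wall, SOX7 read 104.5 and 136.3 at day 0 and 8597 and 9130 at day 8 and rose 58.7-fold. SOX17, also a factor of endoderm and of haemogenic endothelium, read 50.77 and 58.12 against 2401 and 1001 and rose 18.4-fold. SOX18 lay at 29.58 and 27.7 against 162.4 and 244.8 and did not pass. Its day 8 arrays lay above its day 0 arrays, as in 4821 of all 13647 genes. MEF2C, a MADS-box factor of heart, muscle and endothelium, read 157.9 and 153.8 against 5402 and 5453 and rose 29.1-fold. KLF2, the factor that answers blood flow, read 484.5 and 452.3 against 1909 and 2915. KLF4, PROX1, FOXC2 and EPAS1 did not pass.

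The promoters of 3 genes that rose are shown because they carry the short motifs read by the factor families named here. Each line gives the 250 bases before a RefSeq start site on GRCh38.p14, 5′ to 3′ on the gene's strand, and capitals mark matches to CCGGAAG or CAGGAAG, the core read by ETS factors, or to AGATAA, the core read by GATA factors, on either strand.
ERG: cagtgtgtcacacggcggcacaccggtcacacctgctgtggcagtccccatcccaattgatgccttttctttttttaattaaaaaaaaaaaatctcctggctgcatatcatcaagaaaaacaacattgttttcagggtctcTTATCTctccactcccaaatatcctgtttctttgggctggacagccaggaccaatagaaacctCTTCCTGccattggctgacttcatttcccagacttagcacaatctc
TAL1: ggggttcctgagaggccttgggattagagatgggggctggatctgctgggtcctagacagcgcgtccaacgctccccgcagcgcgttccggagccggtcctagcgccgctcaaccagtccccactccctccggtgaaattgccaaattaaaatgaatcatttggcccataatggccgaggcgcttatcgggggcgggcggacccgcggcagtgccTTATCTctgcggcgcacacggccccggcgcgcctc
ALAS2: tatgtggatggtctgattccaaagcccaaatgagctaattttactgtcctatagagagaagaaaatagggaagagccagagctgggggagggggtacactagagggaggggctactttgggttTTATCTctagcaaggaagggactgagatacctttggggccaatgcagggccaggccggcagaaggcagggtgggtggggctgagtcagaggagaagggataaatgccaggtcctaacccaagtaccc

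The ERG window lies at chr21:38498478-38498727 on the minus strand and holds a GATA match that begins 109 bases before the start and an ETS match that begins 46 bases before it. The TAL1 window, at chr1:47232336-47232585 on the minus strand, holds a GATA match 35 bases before the start, and the ALAS2 window, at chrX:55030978-55031227 on the minus strand, holds a GATA match 127 bases before it. In windows of 250 bases before to 50 after each start, a GATA match was held by 6 of 30 windows of 16 genes of the endothelial transcription factor list, by 1 of 30 windows of 25 junction and surface genes, and by 10.3% of all 35116 windows. Among the haem and red cell genes it was held by 13 of 28 windows (46.4%) of 20 genes, a list added to this count later than the other lists. An ETS match was held by 9 of 30, 8 of 30 and 9 of 28 windows of these lists and by 21.8% of all windows. TGCAAAT, the octamer core read by POU factors, was held by 1 of 30, 0 of 30 and 0 of 28 windows of the same lists, against 4.2% of all. The matches are a description of letters, and windows of 1 gene can overlap.

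Arterial and Notch genes rose in 12 of 22 tested cases and fell in 0, with a median change of 2.27. The arterial connexins GJA4 and GJA5 rose 23.6-fold and 24.5-fold, GJA4 from 288.7 and 196.4 to 6921 and 5837 and GJA5 from 27.21 and 23.57 to 1232 and 1529. HEY1, a target of Notch signalling, read 640.6 and 682.7 at day 0 and 13810 and 8162 at day 8, a rise of 15.4-fold (limma, adjusted p = 0.0011). Of the Notch receptors, NOTCH1 rose from 683.3 and 688.1 to 3359 and 4081 and NOTCH4 from 75.24 and 112.1 to 1652 and 1516, while NOTCH3 did not pass. The arterial ligands DLL4 and EFNB2 rose, DLL4 from 145.6 and 136.4 to 760.2 and 713.2 and EFNB2 from 1867 and 1946 to 13180 and 15620. JAG1 did not pass and its relative JAG2 rose from 290.8 and 261.6 to 2205 and 2194.

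CXCR4, a chemokine receptor of arterial endothelium, read 464.3 and 423.2 at day 0 and 12390 and 7557 at day 8, a rise of 20.4-fold. Its call ended without any 1 array of day 0 or day 8 (limma, adjusted p 0.0827 to 0.11), and GJA5 missed the threshold without replicate 2 of day 0, at 0.0504, and without that of day 8, at 0.0518. NOTCH4, DLL4 and EFNB2 were not called without any 1 array either (limma, adjusted p 0.0684 to 0.179), nor was NOTCH1 without either day 0 array or replicate 2 of day 8 (adjusted p 0.0688 to 0.0742). The count of arterial risers was 5 and 4 without replicate 1 and replicate 2 of day 0, and 6 and 5 without replicate 1 and replicate 2 of day 8. For 9 of the 12 arterial risers both first replicates of day 4 and day 6 lay below the remaining sorted arrays, as with EFNB2, at 4520 and 5577 there against 14610 and 17660 on the second replicates.

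Of 10 venous and lymphatic genes tested, 7 rose and 1 fell. EPHB4, the venous partner of EFNB2, read 1097 and 985.4 at day 0 and 2175 and 2684 at day 8. LYVE1, a hyaluronan receptor of lymphatic and embryonic endothelium, rose from 31.55 and 39.4 to 191.5 and 179.1, and the scavenger receptor gene STAB1 rose from 204.8 and 162.2 to 820.1 and 1457. PROX1, which sets lymphatic identity, lay at 125.8 and 111.8 against 119.1 and 117.4. PDPN, a mucin of lymphatic endothelium and epithelia, fell from 1558 and 1502 to 214.2 and 107.1, with a call that ended without any 1 array of either day (limma, adjusted p 0.0733 to 0.162). STAB1 too was not called without any 1 of them (adjusted p 0.0611 to 0.16), nor EPHB4 without either day 0 array or replicate 2 of day 8 (adjusted p 0.0675 to 0.0934). The count of risers then lay between 3 and 6.

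Blood progenitor transcription factors rose in 13 of 24 tested cases and fell in 1, with a median change of 1.21, and 5 of the 13 are also on the endothelial list (TAL1, LMO2, LYL1, GATA2 and HHEX). TAL1, required for all blood formation, read 34.63 and 45.75 at day 0 and 4086 and 3408 at day 8, a rise of 52.3-fold (limma, adjusted p = 2.99e-05). LMO2, its bridging partner, read 107.8 and 131.3 against 5326 and 6063 and rose 37.8-fold. MECOM, a factor of blood stem cells and of endothelium, read 147 and 175.8 against 5566 and 6154 and rose 30.5-fold. The median log2 change was 1.40 over the 4 TAL1 probe sets and 1.25 over the 5 MECOM probe sets, all of them higher. On the probe sets used it was 5.71 and 4.93. HHEX, a homeobox factor of blood, endothelium and liver, rose 8.30-fold, and GATA2 rose from 195.8 and 174.3 to 1641 and 1700.

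The factors of later blood lineages differed by less. GFI1 and GFI1B, repressors that act as endothelium turns into blood, read 98.87 and 78.93 against 266.4 and 278.8 and 105 and 121.1 against 348.5 and 239.9, and both rose. GFI1 lost its call without replicate 2 of day 0 or of day 8 (limma, adjusted p = 0.0748 and 0.0569) and GFI1B without replicate 1 of day 0 (adjusted p = 0.0706). KLF1, the red cell factor, rose from 53.98 and 43.01 to 201.5 and 168.2. MYB, needed for definitive blood, read 442.8 and 489.1 against 943.4 and 1402 and did not pass (limma, adjusted p = 0.221). GATA1, IKZF1, CEBPA and IRF8 did not pass. BCL11A, a repressor of embryonic and fetal globin genes, fell from 770 and 887.3 to 164.2 and 155. RUNX1 was not analysed here.

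Leukocyte surface and signalling genes rose in 12 of 23 tested cases, or 9 to 10 without any 1 array of the 2 days, and fell in 1, the adhesion receptor CD44, which was not called without any 1 array of the 2 days (limma, adjusted p 0.148 to 0.288). SAMSN1, an adaptor of B and mast cells, read 17.15 and 17.88 at day 0 and 1253 and 1522 at day 8 and rose 28.5-fold. LCP2, the adaptor SLP-76 of T cells and platelets, rose from 14.23 and 11.22 to 571.4 and 572.5. PTPRC, which encodes CD45 and defines white blood cells, lay at 24.16 and 19.81 at day 0 and 28.7 and 20.19 at day 8, below the array median throughout. SPN and SPI1, both defining genes of blood cells, read 91.55 and 80.77 and 36.77 and 37.21 at day 8, close to their day 0 values of 89.4 and 88.56 and of 35.08 and 29.41.

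Receptors for blood cytokines rose in 6 of 11 tested cases and fell in 0. CSF2RB, the shared beta chain for interleukin 3, interleukin 5 and granulocyte-macrophage factor, read 27.39 and 29.15 at day 0 and 770.6 and 700.2 at day 8, a rise of 12.7-fold (limma, adjusted p = 0.000118). IL6ST, the shared receptor of the interleukin 6 family, rose 3.79-fold and TNFRSF1A, a receptor of tumour necrosis factor, 2.30-fold. KIT, the stem cell factor receptor, was already high at day 0 and rose from 1464 and 1446 to 2575 and 2332, a call lost without any 1 array of the 2 days (adjusted p 0.115 to 0.192). IL3RA rose 2.04-fold, a call lost without any 1 array of the 2 days (adjusted p 0.14 to 0.23), and TNFRSF1A lost its call without either day 0 array (adjusted p 0.0616 and 0.0661). The count of risers was 2 and 3 without replicate 1 and replicate 2 of day 0, and 3 and 4 without replicate 1 and replicate 2 of day 8. CSF1R, CSF3R, EPOR and IL7R did not pass.

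Of 5 globin genes tested, 3 rose. HBE1, the embryonic beta-like globin, read 106.2 and 82.49 at day 0 and 8943 and 6458 at day 8, a rise of 5.92 ± 1.21 (SE) on the log2 scale or 60.7-fold (limma, adjusted p = 0.0136). At day 4 it read 173.6 and 230, and at day 6 it read 161.1 and 3988, so that replicate 2 of day 6 alone among the earlier sorted arrays approached the day 8 level. HBZ, the embryonic alpha-like globin, read 43.75 and 34.42 against 839.9 and 239.2, and HBD, the minor adult globin, read 38.55 and 48.28 against 300.8 and 256.5. HBB, the adult beta globin, lay at 133.7 and 124.5 against 137 and 142.7 and did not pass. The fetal gamma and the alpha globin genes were not analysed here.

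Without any 1 array of day 0 or day 8 the adjusted p of HBE1 was between 0.071 and 0.0865 and that of HBD between 0.0607 and 0.0832 in limma. HBZ lost its call without either day 0 array, either day 4 array or replicate 1 of day 8 (adjusted p = 0.163 for the last), and kept it without replicate 2 of day 8 (adjusted p = 0.0415). The log2 rise of HBE1 was 5.69 without replicate 1 and 6.16 without replicate 2 of day 8. HBE1 had an SD of 0.19 at day 0 and of 0.33 at day 8, and the spread at day 4 and day 6 also enters its SE. On the 4 arrays compared alone 3 globin genes were called as higher, against 2803 of all 13647 genes.

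Of 20 haem and red cell genes tested, 2 rose and 1 fell, against 10.4% and 14.1% of all genes. RHAG, the ammonium channel of the red cell membrane, read 19.52 and 17.84 at day 0 and 1326 and 994.5 at day 8, a rise of 23.3-fold (limma, adjusted p = 0.00108). All 3 RHAG probe sets were higher, with a median log2 change of 1.67, against 4.54 on the one used. On the earlier sorted arrays RHAG already read between 311.4 and 1099. ALAS2, which catalyses the first step toward haem in red cells, read 59.86 and 52.79 against 348.2 and 330.6, with 318.3 on replicate 2 of day 6 and at most 68.86 on the other earlier sorted arrays. Its rise of 4.21-fold was not called without any 1 array of the 2 days (adjusted p 0.108 to 0.135). SLC25A38, a mitochondrial glycine carrier of haem synthesis, fell by 0.74, and that call too was lost without any 1 of them (adjusted p 0.123 to 0.235).

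The shared enzymes of haem synthesis, ALAD, UROS, UROD, CPOX, PPOX and FECH, did not pass, and neither did SLC4A1, the anion exchanger of mature red cells, at 133.1 and 146 against 172.2 and 196. TFRC, the transferrin receptor, read 10510 and 10340 against 5762 and 4870 and missed the threshold (limma, adjusted p = 0.0546). The other 17 haem and red cell genes were not called.

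Megakaryocyte and platelet genes rose in 10 of 19 tested cases and fell in 0. F2RL2, a thrombin receptor of platelets, read 488.6 and 408.5 at day 0 and 8762 and 8879 at day 8 and rose 18.5-fold, and MMRN1, a factor V binding protein of platelets and endothelium, read 17.98 and 17.13 against 1228 and 1275 and rose 25.9-fold. VWF, the clotting factor of endothelium and platelets, rose 12.1-fold from 102.2 and 56.73 to 1002 and 1649. ITGA2B, the CD41 integrin that marks the earliest blood cells and platelets, read 189.5 and 189.3 against 810.3 and 552.3, a rise of 3.17-fold (limma, adjusted p = 0.0134) that was not called without either day 0 array or replicate 1 of day 8 (adjusted p 0.0784 to 0.0861). PF4, a chemokine of platelet granules, read 119.8 and 148.6 against 7289 and 809.6, so that the day 8 arrays lay 8.70-fold apart. Without replicate 1 of day 8 the PF4 call was lost (adjusted p = 0.141), as it was without either day 0 array or either day 4 array, and the list's risers numbered 5 and 4 without replicate 1 and replicate 2 of day 0 and 6 without replicate 1 of day 8.

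Myeloid genes were mostly dim, and 7 of 20 measured genes could be tested, of which 3 rose. LYZ, the lysozyme of granulocytes and macrophages, read 28.74 and 22.18 at day 0 and 2350 and 222 at day 8, and MPO, the peroxidase of granules, read 87.98 and 82.55 against 862 and 84.46. The 2 day 8 arrays thus differed over 7-fold for both genes, and MPO did not pass. LYZ was not called without replicate 1 or replicate 2 of day 0 (limma, adjusted p = 0.113 and 0.124). FCER1G, the signalling chain of Fc receptors, rose 1.97-fold, a call lost without replicate 1 of day 0 or either day 8 array (adjusted p 0.0518 to 0.0849). Of 10 lymphoid genes 2 rose (20%, against 10.4% of all genes) and 1 fell (10%, against 14.1%). GATA3, a factor of T cells and of many embryonic tissues, rose 4.71-fold and EBF1 2.26-fold. The kinase gene LCK fell 6.20-fold from 572.9 and 563.3 to 62.96 and 66.68. CD3D, CD4, CD79A and PAX5 did not pass. EBF1 was not called without any 1 array of the 2 days (adjusted p 0.0697 to 0.11).

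**Figure D3:**
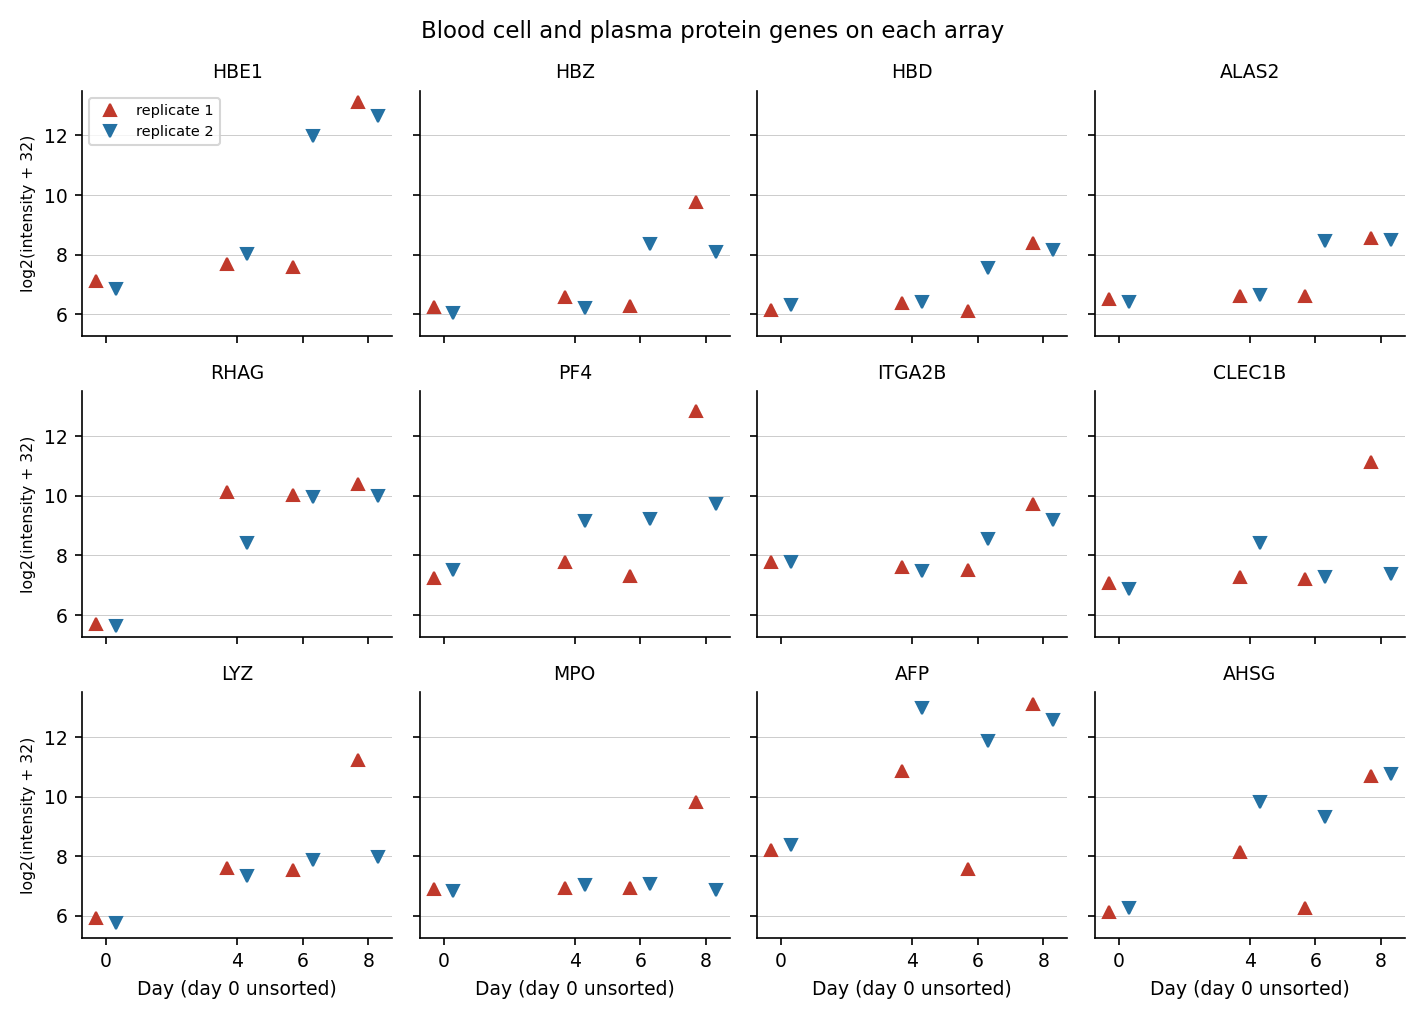
Level as log2(intensity + 32) of 12 blood cell and plasma protein genes on each array by day, with red triangles for replicate 1 and blue triangles for replicate 2, drawn slightly apart. HBE1, HBD and ALAS2 are high on both day 8 arrays and on replicate 2 of day 6, while PF4, CLEC1B, LYZ and MPO are highest on replicate 1 of day 8.

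HOX genes, which set position along the body axis and take part in blood formation, rose in 7 of 15 tested cases and fell in 0. HOXB6 read 43.8 and 45 at day 0 and 1079 and 686.3 at day 8 and rose 11.7-fold (limma, adjusted p = 0.00127), and HOXB7 rose 11.3-fold from 59.62 and 75.04 to 1351 and 880.6. HOXB3 rose 6.26-fold and HOXB5 2.86-fold, and HOXB2, HOXB4 and HOXD8 were the other risers. HOXB8 and HOXB9 did not pass, and HOXB8 differed between the day 8 arrays, at 706.3 and 71.41. The 4 tested HOXC genes did not pass. HOXB2, HOXB4 and HOXD8 were not called without either day 0 array (limma, adjusted p 0.0737 to 0.184), and HOXB5 was not without replicate 1 of day 0 (adjusted p = 0.0842) or replicate 2 of day 8 (adjusted p = 0.067). The count of risers was 3 and 4 without replicate 1 and replicate 2 of day 0.

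Core factors of pluripotency fell in 10 of 12 tested cases and rose in 0, against 14.1% of all genes that fell, with a median change of -2.58. NANOG read 4045 and 4067 at day 0 and 55.74 and 63.21 at day 8, a fall of 44.7-fold (limma, adjusted p = 3.21e-06). OTX2, a homeobox factor of the early ectoderm and of primed stem cells, read 6960 and 6485 against 176.9 and 38.16 and fell 55.8-fold. SOX2 read 7608 and 7695 against 604.9 and 38.5, and ZIC2, a zinc-finger factor of early ectoderm, read 5994 and 5388 against 535.7 and 51.93, so that replicate 1 of day 8 held over 5-fold more signal of both than replicate 2. On the sorted arrays of day 4 and day 6 SOX2 read between 24.89 and 88. The SOX2 and ZIC2 calls were lost without either day 0 array (adjusted p 0.0564 to 0.0715). ZFP42 fell from 573.3 and 602.7 to 41.66 and 55.42, and POU5F1 was not analysed here.

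Other markers of undifferentiated cells fell in 24 of 34 tested cases and rose in 2, with a median change of -1.97. PMAIP1, a pro-apoptotic gene kept high in stem cells, read 8032 and 7631 at day 0 and 386.7 and 170.6 at day 8 and fell 27.0-fold. LEFTY1, an inhibitor of NODAL, fell from 499.6 and 503 to 44.26 and 43.65, and TERF1, a telomere protein, from 8242 and 8034 to 863 and 521.4. LIN28A, an RNA-binding protein of early cells, read 13050 and 12840 against 3445 and 2771, a fall of 4.16-fold, its relative LIN28B read 7306 and 7234 against 5200 and 4510, and of the related RNA-binding genes IGF2BP3 read 10970 and 10370 against 5083 and 5593 and fell, with a call lost without either day 0 array (limma, adjusted p 0.0684 and 0.0539), while IGF2BP2 read 2000 and 2015 against 1993 and 2060 without passing. IGF2BP1 and THY1 were the risers, neither called without replicate 1 or replicate 2 of day 0 or replicate 1 of day 8 (limma, adjusted p 0.0728 to 0.262). LIN28B lost its call without any 1 array of the 2 days (adjusted p 0.0711 to 0.203).

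Epithelial genes fell in 19 of 28 tested cases and rose in 1, with a median change of -1.81. CDH1, the epithelial cadherin, read 8177 and 7307 at day 0 and 316.9 and 170.3 at day 8, a fall of 29.2-fold (limma, adjusted p = 4.93e-05), opposite to the rise of CDH5. ESRP1, the splicing regulator of epithelia, read 3977 and 4013 against 65.15 and 39.27 and fell 48.4-fold. CXADR, a tight junction protein and virus receptor, fell 14.3-fold and the placental cadherin CDH3 12.9-fold. EPCAM read 12450 and 11640 against 2106 and 1009, so that its day 8 level stayed well above the array median. TJP1, a scaffold of both epithelial and endothelial tight junctions, was the riser, from 4624 and 4611 to 10130 and 9334, while its relative TJP3 fell from 312.9 and 321 to 168.1 and 152.6. The epithelial fallers numbered 14, 16 and 15 without replicate 1 of day 0, replicate 2 of day 0 and replicate 2 of day 8.

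Among 14 ectoderm genes, neural and surface, 5 fell (35.7%, against 14.1% of all genes) and 0 rose. These fallers include OTX2, which is also counted among the core pluripotency factors above. TFAP2A, a surface ectoderm factor, fell by 2.91 on the log2 scale on the probe set used, although 2 of its 3 probe sets went the other way, and HESX1, a forebrain and pituitary factor, fell 4.31-fold. STMN2, a microtubule protein of neurons, fell 7.25-fold from 1935 and 2045 to 452.3 and 128.5. Of 8 primitive streak genes 1 fell (12.5%, against 14.1% of all genes) and 0 rose. The faller was EOMES, from 313.6 and 276.6 to 72.25 and 53.94, and TBXT lay at 219.2 and 210.7 against 217.6 and 210.2. STMN2 was not called without either day 0 array (limma, adjusted p 0.0662 and 0.0705).

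**Figure D4:**
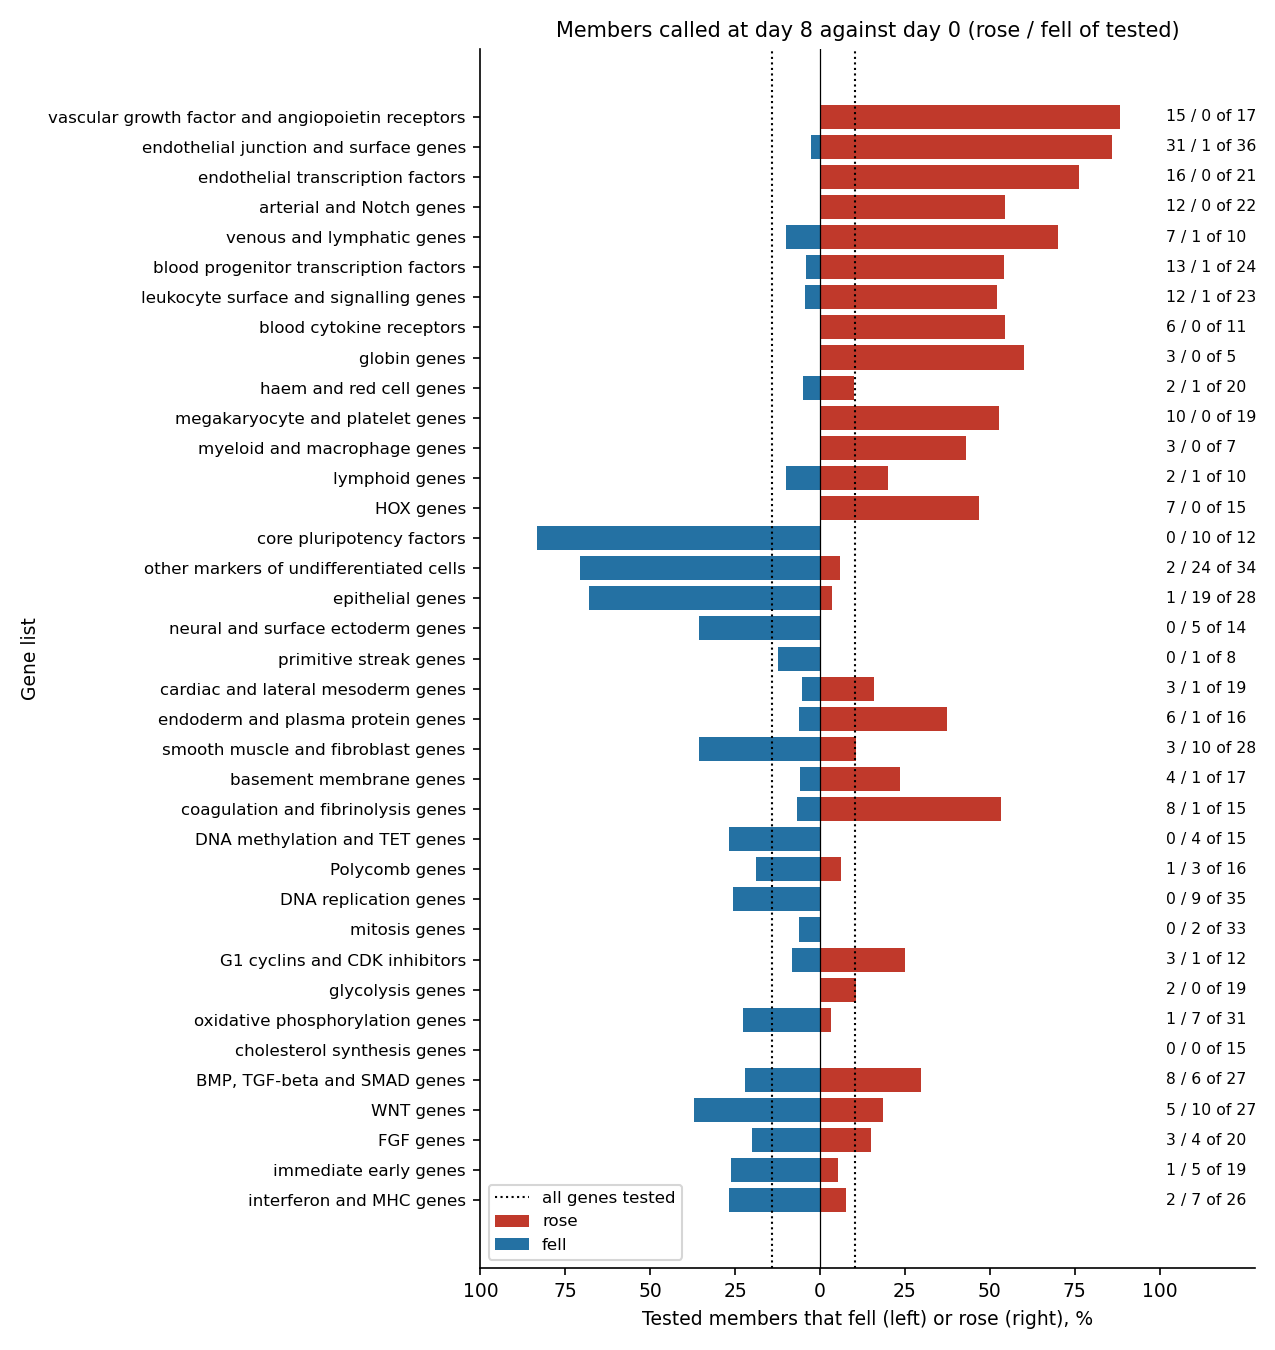
Percentage of the tested members of each gene list that rose (red, right) or fell (blue, left) at day 8 against day 0 in limma, with the counts at the right and dotted lines at the 10.4% of all tested genes that rose and the 14.1% that fell. Endothelial lists lie far to the right, pluripotency and epithelial lists far to the left, and mitosis, glycolysis and cholesterol lists near or inside the dotted lines.

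Genes of other cell types were checked in the same way. Of 16 endoderm and plasma protein genes 6 rose (37.5%, against 10.4% of all genes) and 1 fell (6.25%, against 14.1%). The risers include CXCR4 and SOX17, which are not plasma protein genes and are given above with endothelial genes, beside plasma protein genes such as AFP and AHSG. AFP, the alpha-fetoprotein gene, read 261 and 299.7 at day 0 and 8872 and 6012 at day 8, and AHSG, a plasma glycoprotein, read 37.68 and 45.43 against 1618 and 1700. On the earlier sorted arrays AFP ranged from 158.6 to 8087, and APOA2, which did not pass, ranged from 108.8 to 9449 there. Fitted on the 4 arrays compared alone, 14 of the 16 genes were called as higher, against 2803 of all 13647 genes. AFP and AHSG were not called without any 1 array of the 2 days (limma, adjusted p 0.156 to 0.191 and 0.0719 to 0.0935), and 1 of the 6 risers, SOX17, passed without each of them. FOXA2, a defining factor of endoderm, lay at 64.55 and 77.53 at day 8 and below the array median throughout, and FOXA3 fell from 534 and 532.4 to 84.27 and 83.16. The 4 measured endoderm markers summed to 807.7 and 845.9 at day 0 and to 11620 and 8774 at day 8, with 3 of the 4 above the array median on every array, and their part in the other results was not tested.

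Genes of smooth muscle and fibroblasts fell in 10 of 28 tested cases (35.7%, against 14.1% of all genes) and rose in 3 (10.7%, against 10.4%). COL1A1, the main fibrillar collagen, read 14360 and 14450 at day 0 and 1182 and 1519 at day 8, a fall of 10.5-fold, and TAGLN, an actin-binding protein of smooth muscle, read 1974 and 2201 against 133.7 and 62.57, a fall of 16.9-fold. The collagen cross-linking enzyme gene LOX and COL6A3 fell 8.26-fold and 8.45-fold, and 2 of the 5 COL1A1 probe sets went the other way. The 6 markers of these cells summed to 19890 and 20110 at day 0 and to 3609 and 3227 at day 8, with 6 of 6 above the array median on both day 0 arrays and 6 and 5 of 6 on the day 8 arrays. Whether fibroblast-like cells or the mouse feeder layer added to the day 0 signal was not tested. Without replicate 1 or replicate 2 of day 0 the fallers numbered 3 either way, and COL1A1 was not called without any 1 array of the 2 days (limma, adjusted p 0.063 to 0.0778), nor was COL6A3 (adjusted p 0.127 to 0.185). TAGLN lost its call without either day 0 array or replicate 2 of day 8 (adjusted p 0.0581 to 0.0715), and LOX without either day 0 array or replicate 1 of day 8 (adjusted p 0.0531 to 0.0675).

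Of 19 cardiac and lateral mesoderm genes 3 rose (15.8%, against 10.4% of all genes) and 1 fell (5.26%, against 14.1%). MEF2C is given above, and GATA6, a factor of heart and endoderm, rose 4.44-fold and TBX3 2.45-fold on the probe set used, although the median of its 7 probe sets was 0.04, while ACTC1, the cardiac actin gene, fell 7.90-fold from 3162 and 3158 to 355.4 and 389.2. The cardiac factors NKX2-5 and TBX5 lay at 147.7 and 156.4 against 151.4 and 156.5 and at 57.75 and 68.81 against 71.2 and 59.61. The 3 measured cardiac markers summed to 398.9 and 422 at day 0 and to 349.2 and 339.8 at day 8. ACTC1 and TBX3 were not called without any 1 array of the 2 days (limma, adjusted p 0.0856 to 0.102 and 0.064 to 0.0963), and GATA6 was not without either day 0 array (adjusted p 0.0527 and 0.0588).

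Of 15 coagulation and fibrinolysis genes 8 rose and 1 fell, and the risers numbered 5 without either day 0 array or replicate 2 of day 8. They included both inhibitors of clotting and F8, a clotting factor, which rose by 0.84 on the log2 scale and lost its call without those same arrays (limma, adjusted p 0.0507 to 0.0771), as well as F2R, a thrombin receptor, at 0.92, not called without replicate 2 of day 0 or of day 8 (adjusted p = 0.103 and 0.0677). THBD, thrombomodulin, read 73.63 and 61.26 at day 0 and 1768 and 1458 at day 8 and rose 16.5-fold. TFPI, the inhibitor of the tissue factor pathway, read 809.4 and 810.1 against 9865 and 10490, a rise of 12.1-fold (limma, adjusted p = 5.33e-05), and F3, tissue factor itself, was the faller, from 407.9 and 491.4 to 82.76 and 55.87. PROCR, the protein C receptor, rose from 487.6 and 538 to 2381 and 2017 but was not called without replicate 1 of day 0 (adjusted p = 0.0596), and PROS1, or protein S, rose 8.18-fold. A2M, a broad protease inhibitor, rose 11.9-fold and was not called without any 1 array of the 2 days (adjusted p 0.0719 to 0.0867). The plasminogen activator genes PLAT and PLAU did not pass.

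Basement membrane genes rose in 4 of 17 tested cases (23.5%, against 10.4% of all genes) and fell in 1 (5.88%, against 14.1%). On the 4 arrays compared alone 12 of the 17 were called as higher, against 2803 of all 13647 genes. COL15A1, a collagen of vessel walls, read 24.77 and 28.5 at day 0 and 1698 and 819.4 at day 8 and rose 20.7-fold, and the nidogens NID2 and NID1, which link laminin to collagen IV, rose 6.91-fold and 6.16-fold. COL4A1 and COL4A2, the main collagen IV chains, read 5790 and 5194 against 13930 and 14580 and 3784 and 3853 against 11500 and 11410 without passing. On the day 4 and day 6 arrays, whose spread enters the fit, COL4A1 ranged from 5130 to 16150. LAMA1, a laminin chain of the early embryo, fell 5.25-fold, a call lost without either day 0 array or replicate 2 of day 8 (limma, adjusted p 0.0845 to 0.0997), and LAMA4, the laminin chain of vessels, did not pass at 1.42 on the log2 scale.

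Chromatin regulators changed in a few members. Of 15 genes of DNA methylation and demethylation 4 fell (26.7%, against 14.1% of all genes) and 0 rose. DNMT3B, the methyltransferase high in stem cells, read 13470 and 12450 at day 0 and 2122 and 2289 at day 8 and fell by 2.54 on the log2 scale (limma, adjusted p = 6.79e-05), and TET1, which oxidises methylated cytosine, fell 7.08-fold from 2756 and 2629 to 385.9 and 322.5, with 1 of its 2 probe sets going the other way. HELLS, a chromatin remodeller, fell 4.25-fold and was not called without replicate 2 of day 0 (adjusted p = 0.0525). MBD2, a reader of methylated DNA, fell 10.6-fold on the probe set used, with 2 of its 4 probe sets going the other way, and was not called without either day 0 array or replicate 2 of day 8 (adjusted p 0.0533 to 0.0605). DNMT1, DNMT3A, TET2 and TET3 did not pass.

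Of 16 Polycomb genes 3 fell (18.8%, against 14.1% of all genes) and 1 rose (6.25%, against 10.4%). JARID2, a recruiter of the methylating complex, fell 3.61-fold, and PHC1 of the ubiquitylating complex fell 4.01-fold, from 3574 and 3412 to 791.1 and 905.7, while its relative PHC2 rose 3.54-fold from 958.7 and 984.6 to 3436 and 3599. CBX7 fell by 0.47 on the log2 scale and lost the call without any 1 array of the 2 days (limma, adjusted p 0.118 to 0.258). The catalytic subunit genes EZH1 and EZH2 did not pass.

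Growth genes were lower at day 8 without most of them passing. Of 35 DNA replication genes 9 fell (25.7%, against 14.1% of all genes) and 0 rose. Their median change was -0.88, against -0.03 over all genes. Among 33 mitosis genes 2 fell (6.06%, a smaller share than of all genes), with a median of -1.05. All 33 mitosis genes were lower at day 8, while 6407 of all 13647 genes were higher. GINS4, a subunit of the replicative helicase, fell 4.16-fold on the probe set used. Of its 4 probe sets 3 were lower, with a median change of -0.53. GINS1, CDC6 and MCM4 of the same machinery fell 3.52-fold, 3.39-fold and 2.86-fold. The spindle checkpoint genes BUB1 and BUB1B fell 5.06-fold and 3.04-fold, BUB1B from 6791 and 6401 to 2361 and 1954. Of the 5 BUB1 probe sets 4 were lower, with a median change of -0.53. MKI67, the usual marker of dividing cells, read 616.2 and 638.3 against 547 and 379.6 and did not pass.

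Most of these calls were lost when a single array of day 0 or day 8 was left out. Without replicate 1 or replicate 2 of day 0 or replicate 2 of day 8, 1 of the replication genes passed, without replicate 1 of day 8 2 did, and none of the mitosis genes passed without any 1 of the 4 arrays. BUB1 and BUB1B then had adjusted p between 0.0685 and 0.183 in limma, GINS1 and CDC6 between 0.0946 and 0.198, and MCM4 between 0.0681 and 0.0835 without either day 0 array or replicate 2 of day 8. Fitted on the 4 arrays compared alone, 30 mitosis genes were called as lower, against 3981 of all 13647 genes. With array weights 27 replication genes were, against 4028 of all 13647 genes.

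Among G1 regulators 3 of 12 rose (25%, against 10.4% of all genes) and 1 fell (8.33%, against 14.1%). RB1, the retinoblastoma protein that restrains entry into S phase, read 1143 and 1160 at day 0 and 4993 and 4581 at day 8 and rose 4.07-fold (limma, adjusted p = 0.000505). CCND3 rose 2.64-fold, with 1 of its 2 probe sets going the other way, and CDKN1B 1.58-fold, and CDKN2B fell 2.52-fold from 95.99 and 91.8 to 18.38 and 17.49, close to the array median at day 0 and below it at day 8. CDKN1B was not called without any 1 array of the 2 days (adjusted p 0.0864 to 0.205), and CCND3 was not without either day 0 array or replicate 2 of day 8 (adjusted p 0.0736 to 0.0875).

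Of 19 glycolysis genes 2 rose (10.5%, against 10.4% of all genes). They were the glucose transporter gene SLC2A3, by 1.66-fold, and the hexokinase gene HK1, by 1.59-fold. Of 31 oxidative phosphorylation genes 7 fell (22.6%, against 14.1% of all genes) and 1 rose. On the 4 arrays alone 18 of these 31 were called as lower, against 3981 of all 13647 genes. COX7C, NDUFA2, NDUFV2 and COX6A1, subunits of the respiratory chain, fell by 1.05, 1.02, 1.02 and 0.99 on the log2 scale, although 2 of the 3 NDUFA2 probe sets went the other way. None of the oxidative phosphorylation genes passed without any 1 array of the 2 days. Of 15 cholesterol synthesis genes 0 passed in limma, where SQLE and MVK had the smallest p at 0.72 ± 0.39 (SE) and 0.28 ± 0.16 (SE) on the log2 scale. SLC2A3 was not called without either day 0 array, and HK1 was not called without any 1 array of the 2 days.

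Signalling genes of the BMP and TGF-beta families changed both ways, with 8 up (29.6%, against 10.4% of all genes) and 6 down (22.2%, against 14.1%) of 27. ACVRL1, the endothelial receptor ALK1, read 85.3 and 80.56 at day 0 and 1844 and 2611 at day 8 and rose 19.4-fold, and its co-receptor ENG rose from 202.2 and 168.8 to 797.4 and 1112. TGFBR3, or betaglycan, read 470.9 and 471.7 against 7449 and 10030 and rose 17.2-fold, and TGFBR2 and BMPR2 rose too. The secreted antagonist GREM1 read 2125 and 2087 against 50.85 and 23.01 and fell 31.7-fold (limma, adjusted p = 0.00332). Of the ID genes, which BMP signals induce, ID4 fell 11.3-fold and ID1 fell from 4895 and 4626 to 801.8 and 464, while ID2 and ID3 did not pass. ID1 and ENG were not called without any 1 array of the 2 days (adjusted p 0.0595 to 0.132 and 0.0535 to 0.109). The other risers were the ligands TGFB1 and BMP6 and the regulator BMPER, and the ligands BMP2, TGFB2 and INHBA were among the fallers. The risers numbered 4 without either day 0 array, and 5 without replicate 2 of day 8. TGFB1 and BMP6 were not called without any of these 3 arrays (adjusted p 0.0765 to 0.11), nor BMPER without either day 0 array (adjusted p 0.0726 and 0.0759).

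WNT genes fell in 10 of 27 tested cases (37%, against 14.1% of all genes) and rose in 5 (18.5%, against 10.4%). The fallers numbered 4 without either day 0 array or replicate 2 of day 8, and the risers 1 and 2 without replicate 1 and replicate 2 of day 0 and 2 without replicate 1 of day 8. FZD5 and FZD7, receptors high in stem cells, fell 17.9-fold and 8.58-fold, FZD5 from 9019 and 8740 to 604.7 and 359.2, while FZD4, a receptor of vessels, rose from 295.4 and 310.8 to 1323 and 1269. SOST, an antagonist best known from bone, read 16.72 and 26.44 against 1928 and 2048 and rose 37.8-fold (limma, adjusted p = 0.00113). SFRP2, another secreted antagonist, fell 15.9-fold, with day 8 values of 659.4 and 67.36. AXIN2, a target of WNT signals, fell from 1534 and 1408 to 718.4 and 258.6, and LEF1 rose from 316.6 and 262.8 to 1392 and 945.9. FZD7 and SFRP2 were not called without either day 0 array or replicate 2 of day 8 (adjusted p 0.0518 to 0.0571 and 0.128 to 0.135), nor was AXIN2 (0.12 to 0.167). LEF1 was not called without either day 0 array or replicate 1 of day 8 (limma, adjusted p 0.0701 to 0.0978), and FZD4 was not without replicate 1 of day 0 (adjusted p = 0.0506).

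FGF genes fell in 4 of 20 tested cases and rose in 3, shares near the 14.1% and 10.4% of all genes, and 0 of the risers passed without either day 0 array. FGF2, which sustains stem cells, fell 4.43-fold from 956.1 and 889.7 to 224.6 and 149.2. The receptors FGFR3 and FGFR2 fell 4.98-fold and 8.95-fold on the probe sets used. For FGFR3 1 of 2 probe sets was lower, and for FGFR2 7 of 11 were, with a median change of -0.12. DUSP5, a phosphatase of ERK in endothelium, rose 3.95-fold and was not called without any 1 array of the 2 days (limma, adjusted p 0.067 to 0.0866), and FGFR2 was not without either day 0 array or replicate 2 of day 8 (adjusted p 0.0634 to 0.0732).

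Immediate early genes fell in 5 of 19 tested cases (26.3%, against 14.1% of all genes) and rose in 1 (5.26%, against 10.4%). The riser, JUND, was not called without either day 0 array or replicate 2 of day 8. CCN2 and CCN1, matrix proteins induced by YAP and by TGF-beta, fell 15.3-fold and 9.97-fold, CCN2 from 2861 and 2577 to 177.1 and 121.3. IER3 and ATF3 fell 7.38-fold and 7.20-fold, ATF3 with 2 of its 3 probe sets going the other way. FOS, FOSB, JUN and EGR1 did not pass. Of 26 interferon and MHC genes 7 fell (26.9%, against 14.1% of all genes) and 2 rose (7.69%, against 10.4%). PSMB8 and PSMB9, subunits of the immunoproteasome, were lower by 8.87-fold and 5.31-fold, PSMB8 going from 654.1 and 695.6 to 56.26 and 39.94, and IFITM1 fell 8.83-fold. IFIT3, an interferon-induced gene, rose 6.75-fold and HLA-E rose from 313.3 and 326.9 to 1431 and 2280, while B2M, HLA-B and HLA-C did not pass.

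The test of what sets day 8 apart from the earlier sorted days called no gene. Day 8 minus the mean of day 4 and day 6 gave 0 of 13647 genes (0%) in limma with an adjusted p below 0.05, against 516 (3.78%) at an unadjusted p under 0.05. CDH5 differed by 0.33 ± 0.35 (SE) on the log2 scale, TAL1 by -0.15 ± 0.24 (SE) and NANOG by -0.07 ± 0.12 (SE). HBE1 was higher at day 8 by 4.08 ± 1.04 (SE), HBD by 1.66 ± 0.35 (SE) and ITGA2B by 1.67 ± 0.29 (SE), each with an adjusted p of 0.815. Without replicate 2 of day 6, 8 genes passed, 7 higher, among them HBE1 by 5.17, HBD by 2.02 and ALAS2 by 1.91, and 1 lower, LHX1. Without replicate 2 of day 8, 3 genes passed, all higher, which were LYZ, MPO and SELP. The rises from day 0 given above are therefore not shown to be particular to day 8, and comparisons of day 4 and day 6 with day 0 use the same day 0 arrays.

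The 2 day 8 arrays differed over 2-fold in 215 genes, of which 180 were higher on replicate 1 and 35 on replicate 2. The largest differences were in CLEC1B, a platelet receptor, at 2192 and 135.1, and in LYZ, SOX2, PF4 and MPO, whose values are given above. By list, replicate 1 was over 2-fold higher in 4 of 19 megakaryocyte and platelet genes, 2 of 7 myeloid genes, 4 of 12 core pluripotency factors, 4 of 14 ectoderm genes and 3 of 15 HOX genes, and in 1 of 36 endothelial junction and surface genes. Replicate 2 was higher by 3.69-fold in THBS4, a matrix thrombospondin, by 2.68-fold in BMPER, a BMP regulator of vessels, and by 2.32-fold in MALAT1, a nuclear noncoding RNA. These genes were chosen after their values were seen, and with 1 array on each side there is no test.

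**Figure D5:**
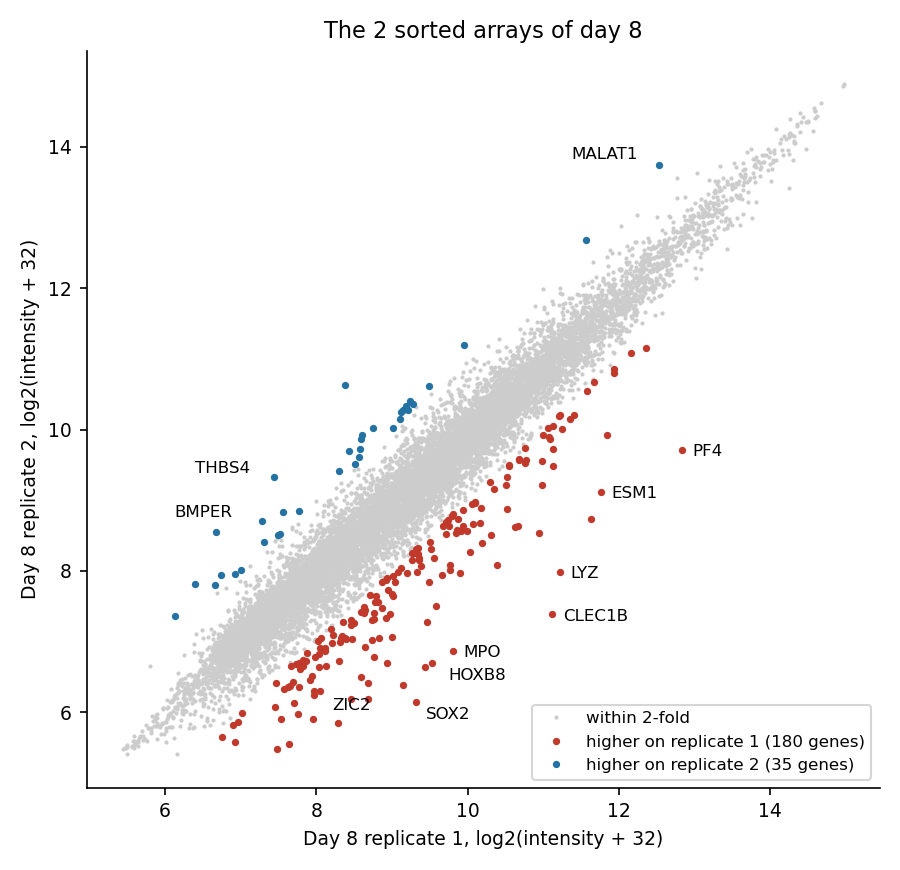
Level of each of the 13647 genes tested as log2(intensity + 32) on replicate 1 (horizontal axis) and replicate 2 (vertical axis) of the sorted day 8 cells. Red points are the 180 genes over 2-fold higher on replicate 1, such as PF4, LYZ, CLEC1B and MPO, and blue points the 35 over 2-fold higher on replicate 2.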

How the data were processed

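Per the labels' protocols, Trizol RNA was labelled as biotinylated cRNA and hybridised to Affymetrix arrays. The authors deposited 1 linear intensity per probe set, made with MAS5 per the submitters' processing notes, which give no version here. How the intensities were scaled stays unknown. Of 54675 probe sets 41091 had 1 gene symbol, 1801 several and 11721 none. Genes such as POU5F1, RUNX1 and the alpha and gamma globins, whose probe sets here carried several symbols, were not analysed here. The probe set with the highest mean stood for a gene, and _x_at probe sets were used where a gene lacked any other. The test covered 13647 of 19775 genes, those that exceeded the median of their array in 2 or more of 8 arrays.

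limma 3.58.1 in R 4.3.3 fitted log2(intensity + 32) over all 8 arrays, each group having its own coefficient, with a trended eBayes prior and two-sided p-values adjusted by Benjamini-Hochberg over all genes tested, called at 0.05, on 4 residual degrees of freedom. The 38 gene lists (905 memberships, 824 measured, 728 tested) and the comparison were chosen with earlier results of these data known. Named genes were the 12 largest rises and 12 largest falls among called genes whose replicates did not overlap, without microRNA hosts, up to 4 called members per list with the largest change, or the 2 with the smallest p where fewer than 2 were called, and KDR, PECAM1, CDH5, CD34, TAL1, NANOG and SOX2. A rule for 8 rises and 8 falls against day 4 and day 6 named no gene. Alternatives changed the offset, filter, normalization, probe set rule, variance model, arrays and minimum change. The fit was tested on simulated data. Promoters came from RefSeq (GRCh38.p14). Python 3.11.15 with matplotlib 3.10.9 drew the figures.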

Additional observations from a re-analysis of the deposited data

How the results depend on the processing

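For day 8 against day 0, the count of 3345 changed genes stayed within 1.5 times with a smaller and a larger offset, without a filter or with a stricter one, with quantile or median scaling, with probe sets averaged, with an untrended prior and with a replicate block. It was 6890 with array weights (2862 higher and 4028 lower), 6784 on the 4 arrays compared alone (2803 and 3981), 6781 with both first replicates of day 4 and day 6 removed (2790 and 3991), which held all 3345, and 629 under a minimum log2 change of 1 (276 and 353). Leaving out each array in turn gave 1217 to 4360 changed genes, 471 to 1840 higher and 746 to 2520 lower, the lowest counts without replicate 1 of day 0. A group left with 1 array borrows its spread from the remaining groups. Nothing in the labels says that replicate numbers pair the arrays. Deviations of same-numbered arrays correlated at 0.0237 for day 0 and day 8, but at 0.6 for day 4 and day 6, 0.407 for day 6 and day 8 and 0.188 for day 4 and day 8, so that same-numbered sorted arrays moved together. The fit with a replicate block gave 4250 changed genes (1710 higher and 2540 lower), 3335 of them shared with the fit without it, and for day 8 against day 4 and day 6 it moved the genes at an unadjusted p under 0.05 from 516 to 965 with 0 called. For day 8 against day 4 and day 6, the count was 0 in the other settings, 8 when replicate 2 of day 6 was left out (7 higher and 1 lower) and 3 when replicate 2 of day 8 was (3 higher), so that leaving out each array gave 0 to 8, 0 to 7 higher and 0 to 1 lower. Of 2907 values of named genes under the alternatives, 2658 kept direction and call, 246 lost the call, 3 gained it and 0 reversed. Of 136 named genes called, 50 lost the call without at least 1 day 0 array, 42 without at least 1 day 8 array, and 86 kept it in every setting but the minimum change. With 2 arrays a group, array number limits every value here, and dim genes near the floor depend on the offset.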

Other observations

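Some genes were singled out after their values were seen because both day 8 arrays lay above all 4 earlier sorted arrays. TACR1, the receptor of substance P, lay at 7.53 and 7.83 on the log2 scale at day 8 against a mean of 6.40 at day 4 and day 6 and 5.97 at day 0. ITGA1, an integrin subunit that binds collagen, lay at 9.14 and 8.82 against a mean of 7.87. CAVIN2, a protein of caveolae, lay at 9.38 and 9.19 against 7.90, and PIEZO2, a mechanically gated channel, at 9.98 and 10.24 against 7.96. Their adjusted p against day 4 and day 6 in limma was 0.5 for TACR1 and ITGA1, 0.815 for CAVIN2 and 0.668 for PIEZO2, so that none passed. WNT11, a ligand of noncanonical WNT signalling, lay at 7.62 and 7.69 at day 8, below the mean of 8.48 at day 4 and day 6 and above that of 7.05 at day 0, with an adjusted p of 0.5. Of the 139 genes named by rule, 96 had at least 2 probe sets, and in 14 of these at least 1 probe set went the other way from the probe set used.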
